A study of Mus musculus with 18 samples.

Results

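Tyro3, Axl and Mertk encode the TAM family of receptor tyrosine kinases, and Gas6 and Pros1 encode the proteins that bind and activate them. These 5 genes, of 54752 with RNA values, are described here in the mouse cerebellum. They were selected on measured values: Tyro3 was chosen because its RNA was far lower in both mutants than in B6J, and the other 4 genes were added as its relatives and ligands. Tyro3 against B6J is therefore given as a description with no test, whereas the other 4 genes, and Tyro3 between the mutants, are given with their tests. Since Tyro3 was chosen for low RNA in both mutants, its RNA test between them is not independent of the choice.

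TAM receptors span the cell membrane, with immunoglobulin-like and fibronectin domains outside and a tyrosine kinase inside. Gas6 and Pros1 need vitamin K: a carboxylase modifies glutamates near one end of each protein, and this Gla domain then binds phosphatidylserine on the surface of dying cells or shed membrane while the other end holds the receptor. In the brain, Mertk and Axl are known for the uptake of dying cells and for damping inflammation in microglia and other phagocytes, and Tyro3 is the family member best known from neurons.

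Cerebella of 3-week-old mice of both sexes were profiled by RNA sequencing and by ribosome profiling, which sequences the pieces of mRNA that ribosomes protect (footprints). Each of 3 genotypes had 3 libraries per assay, 18 libraries in all, and each footprint library came from 1 cerebellum. All mice were C57BL/6J (B6J), a strain that carries a mutation impairing n-Tr20, a brain-enriched tRNA that reads the arginine codon AGA, so the controls share this mutation. The B6J.Gtpbp1-/- mice (Gtpbp1 mutants) carry a PGK-Neo cassette in place of coding exons of Gtpbp1 and were backcrossed to B6J, and the B6J-Gtpbp2-/- mice (Gtpbp2 mutants) carry nmf205, a chemically induced point mutation that abolishes Gtpbp2. GTPBP1 and GTPBP2 are related GTPases that act when ribosomes stall, and the comparisons ask how gene expression and translation differ when either is missing. Both mutants were compared with the same 3 B6J libraries, and with each other. RNA libraries are labelled batch 1 and footprint libraries batch 2, so assay and batch cannot be told apart. RNA libraries held 37794598 to 52114400 counts and footprint libraries 3630823 to 10442573.

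The mutated genes served as a check of the labels. Gtpbp1 RNA was 71.0, 77.8 and 66.7 CPM (counts scaled to library size) in B6J and 44.0, 41.7 and 43.9 CPM in the Gtpbp1 mutants, a fall of log2 -0.73 (adjusted p = 5.94e-05; unless another tool is named, every adjusted p is that of edgeR's quasi-likelihood test, corrected after Benjamini and Hochberg). Its footprints were 73.6, 117 and 84.9 CPM in B6J and 32.0, 25.5 and 35.6 CPM in the same mutants. Gtpbp2 RNA, which a point mutation need not lower, was 85.9, 74.0 and 88.1 CPM in B6J and 65.5, 75.4 and 72.7 CPM in the Gtpbp2 mutants (log2 -0.22, adjusted p = 0.19). In TPM, a unit scaled to transcript length and depth, RNA of the mutated genes looked different. Gtpbp1 stood at 43.5, 38.4 and 40.4 TPM in B6J and at 34.5, 35.1 and 41.1 TPM in the Gtpbp1 mutants, which overlapped, and Gtpbp2 at 114, 91.7 and 99.0 TPM in B6J and at 127, 145 and 151 TPM in the Gtpbp2 mutants, all above B6J. Gtpbp1 RNA thus set its mutants apart in CPM and not in TPM, and its footprints set them apart in CPM. Gtpbp2 footprints were 44.8, 36.1 and 38.5 CPM in B6J and 28.9, 26.4 and 7.54 CPM in these mutants (log2 -0.97, adjusted p = 0.321), with every mutant library below every B6J library. Ddx3y, a Y-linked gene, was at 0, 101 and 0.517 CPM in the B6J RNA libraries, at 119, 128 and 0.549 in the Gtpbp1 mutants and at 0.448, 0.249 and 0.225 in the Gtpbp2 mutants. In footprints it was at 84.8, 72.7 and 0.477 CPM in B6J, at 120, 2.87 and 0.668 in the Gtpbp1 mutants and at 2.5, 1.1 and 1.06 in the Gtpbp2 mutants. Sexes were thus not balanced between genotypes, and RNA and footprint libraries of the same number did not all come from the same mouse. Ddx3y was low in every library of the Gtpbp2 mutants, so comparisons that include them are partly confounded with sex. Sex was not a term in the fits.

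Levels of different genes are compared per length, as TPM for RNA and as CPM per kilobase of coding sequence for footprints. In B6J, mean RNA levels ran from Tyro3 (84.1 ± 8.64 TPM, SD, n = 3) through Gas6 (69.7 ± 0.827) and Axl (23.9 ± 2.6) to Mertk (9.73 ± 3.68) and Pros1 (7.53 ± 0.662), and among neighbours in this order the libraries of Mertk and Pros1 alone overlapped. In both mutants Gas6 stood first. Among Gtpbp1 mutants the order was Gas6 (67.1 ± 5.92 TPM), Tyro3 (37.5 ± 4.19), Axl (31.5 ± 0.96), Pros1 (11.9 ± 0.998) and Mertk (9.64 ± 1.15), with no overlap between neighbours. Among Gtpbp2 mutants it was Gas6 (68.3 ± 6.82 TPM), Tyro3 (32.8 ± 1.76), Axl (29.7 ± 2.76), Mertk (12.8 ± 4.4) and Pros1 (12.1 ± 2.49), where Tyro3 overlapped Axl and Mertk overlapped Pros1.

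**Figure D1:**
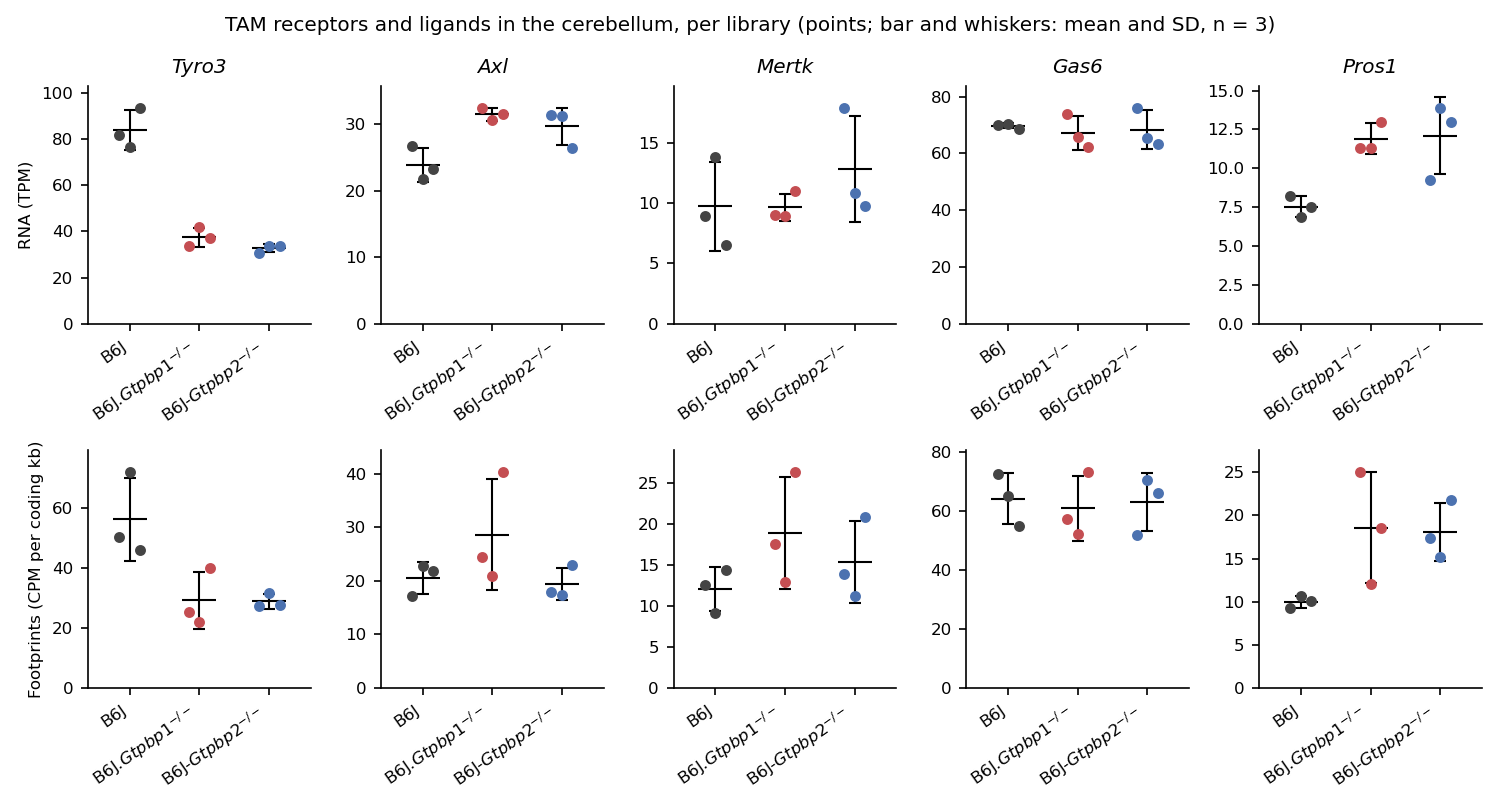
RNA level in TPM (upper panels) and footprints in CPM per coding kilobase (lower panels) of the 5 genes, with a point per library and the mean and SD of the 3 libraries of each genotype. Tyro3 RNA sits between 76.7 and 93.6 TPM in B6J and between 30.8 and 41.9 TPM in the mutants, and Pros1 is above the B6J range in all mutant libraries of both assays.

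Tyro3 (ENSMUSG00000027298, chr2:119797733-119818104, plus strand, GRCm38) is the receptor with the most RNA in B6J. Its RNA stood at 195, 171 and 222 CPM in B6J, at 76.7, 86.1 and 68.8 CPM in the Gtpbp1 mutants and at 69.7, 66.8 and 74.9 CPM in the Gtpbp2 mutants. Every mutant library lay below every B6J library, and the mutants overlapped each other. Mean CPM was 39.4% of the B6J mean in the Gtpbp1 mutants and 35.9% in the Gtpbp2 mutants, with log2 fold changes of -1.35 (SE 0.107) and -1.48 (SE 0.101). These are the values on which Tyro3 was selected. Of 1949 genes called lower in the Gtpbp1 mutants, 101 had a lower log2 fold change than Tyro3, as had 45 of the 1248 called lower in the Gtpbp2 mutants. These numbers called lower depended on the libraries. As single libraries were left out, they ran from 1164 (without Gtpbp1 mutant replicate 2) to 2138 (without B6J replicate 3) in the Gtpbp1 mutants. For the Gtpbp2 mutants they ran from 543 (without B6J replicate 1) to 1388 (without Gtpbp2 mutant replicate 1). On the TPM scale Tyro3 stood at 81.8, 76.7 and 93.6 in B6J. It was at 33.5, 41.9 and 37.1 TPM in the Gtpbp1 mutants and at 30.8, 33.8 and 33.9 TPM in the Gtpbp2 mutants. Again no mutant library was in the B6J range. Between the mutants the log2 difference was 0.13 (Gtpbp1 over Gtpbp2 mutants, SE 0.091, 95% interval -0.07 to 0.33, adjusted p = 1), and it was 0.05 without Gtpbp1 mutant replicate 2 and 0.21 without Gtpbp1 mutant replicate 3. Tyro3 was chosen for low RNA in both mutants, which favours a small difference between them. This test is therefore not independent of the choice.

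Tyro3 has 8 annotated transcripts, of which 2 are protein-coding, and Tyro3-201, a coding transcript of 3989 bases, held 67.3% to 91.3% of the gene's TPM in every library. It stood at 67.2, 59.4 and 77.1 TPM in B6J, at 30.6, 31.7 and 25.0 in the Gtpbp1 mutants and at 26.6, 24.7 and 25.7 in the Gtpbp2 mutants, so the coding transcript was lower in all mutant libraries. A transcript of 3529 bases that retains an intron stood at 7.85, 5.68 and 5.62 TPM in B6J, at 1.92, 5.41 and 4.54 in the Gtpbp1 mutants and at 3.52, 4.24 and 6.53 in the Gtpbp2 mutants. There, 1 library of the Gtpbp2 mutants lay within the B6J range.

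Granule neurons are the most numerous cells of the cerebellum. Of their 9 marker genes, 0 rose and 8 fell in RNA in the Gtpbp1 mutants, with a median log2 change of -0.586 against 0.029 over all genes tested, while 0 rose and 7 fell in the Gtpbp2 mutants, with a median of -0.538 against 0.027 (edgeR, which called 13.8% and 8.63% of all genes; at an unadjusted p under 0.05, 8 and 9 differed, and DESeq2 called 8 and 9, all lower). Their summed RNA was 3813, 3851 and 3851 TPM in B6J, 2516, 2471 and 2871 in the Gtpbp1 mutants and 2628, 2864 and 2454 in the Gtpbp2 mutants. All mutant libraries were below B6J here too, as for Tyro3. The most abundant of these genes was Cbln1, a synaptic organiser, at log2 -0.84 and -0.81 (adjusted p = 4.26e-05 and 0.000845), and the GABA receptor subunit Gabra6 was at -1.08 and -1.02 (adjusted p = 1.6e-05 and 8.15e-05). In whole cerebellum, fewer cells of a type and less RNA per cell cannot be told apart, and the part of granule neurons in the Tyro3 values was not tested. In granule neuron footprints 0 of 9 genes were called in the Gtpbp1 mutants by edgeR (median -0.681 against 0.014, 7 at an unadjusted p under 0.05, 2 called lower by DESeq2), and 7 of 9 fell in the Gtpbp2 mutants (median -1.169 against 0.005, 8 called lower by DESeq2), where edgeR called 0.745% and 2.94% of all genes.

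Tyro3 footprints were 137, 196 and 125 CPM in B6J, 69.2, 59.5 and 109 CPM in the Gtpbp1 mutants and 74.2, 85.8 and 74.8 CPM in the Gtpbp2 mutants. Mutant libraries were below B6J in each case, with Gtpbp1 mutant replicate 3 nearest to it. In footprints 21 of 24 genes called lower in the Gtpbp1 mutants and 94 of 230 in the Gtpbp2 mutants had a lower log2 fold change than Tyro3. The numbers called lower were not steady: as single libraries were left out they ran from 4 (without B6J replicate 1 or 2) to 97 (without B6J replicate 3) in the Gtpbp1 mutants, with 155 by DESeq2, and from 51 (without Gtpbp2 mutant replicate 1) to 322 (without B6J replicate 3) in the Gtpbp2 mutants. Mean footprints were 51.7% of B6J in the Gtpbp1 mutants and 51.2% in the Gtpbp2 mutants, at log2 fold changes of -0.95 (SE 0.251) and -0.98 (SE 0.184). The footprint change less the RNA change, called translation efficiency (TE), was 0.40 (SE 0.307) and 0.51 (SE 0.221) on the log2 scale. These TE values depended on the libraries used. For TE, leaving out a replicate here and below drops both the RNA and the footprint library of that number, which need not be from the same mouse. In the Gtpbp1 mutants the value was 0.02 without Gtpbp1 mutant replicate 3, 0.14 without B6J replicate 3, 0.66 without Gtpbp1 mutant replicate 2 and 0.69 without B6J replicate 2. For the Gtpbp2 mutants it was 0.23 without B6J replicate 3 and 0.83 without B6J replicate 2. The footprint difference of Tyro3 between the mutants was log2 0.01 (95% interval -0.47 to 0.50, adjusted p = 0.99), and it was -0.28 without Gtpbp1 mutant replicate 3 and -0.02 without either Gtpbp2 mutant replicate 1 or 3.

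Tyro3 made up 69.6%, 68.4% and 75.8% of the summed TPM of the 3 receptors in B6J, 44.7%, 51.4% and 46.7% in the Gtpbp1 mutants and 38.5%, 44.5% and 48.2% in the Gtpbp2 mutants. Axl made up a mean of 20.3% ± 2.14 in B6J, 40.2% ± 2.92 in the Gtpbp1 mutants and 39.4% ± 1.71 in the Gtpbp2 mutants (SD, n = 3), and Mertk 8.38%, 12.3% and 16.9%. Because shares add up to a whole, the larger shares of Axl and Mertk contain the lower level of Tyro3. Receptor TPM summed to 118 ± 5.62 in B6J, 78.7 ± 3.26 in the Gtpbp1 mutants and 75.4 ± 4.93 in the Gtpbp2 mutants, whereas the ligands summed to 77.2 ± 1.0, 79.0 ± 5.2 and 80.3 ± 4.55. The lower receptor sums of the mutants likewise contain the level of Tyro3 on which it was selected, so they are no separate result, and the ligand sums overlapped. With the same limit, Gas6 RNA stood at 0.835 ± 0.0923 times Tyro3 RNA per length in B6J, at 1.81 ± 0.337 times in the Gtpbp1 mutants and at 2.09 ± 0.329 times in the Gtpbp2 mutants. In footprints per coding kilobase, Tyro3 made up 62.8% ± 6.76 of the 3 receptors in B6J, 38.1% ± 1.02 in the Gtpbp1 mutants and 45.7% ± 6.93 in the Gtpbp2 mutants.

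**Figure D2:**
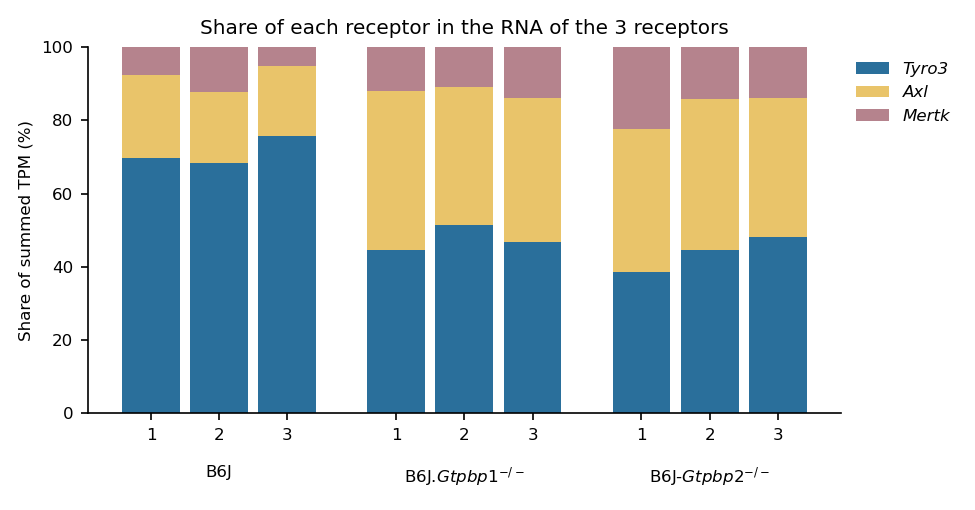
Stacked bars give the percent of the summed TPM of Tyro3, Axl and Mertk that each receptor held in each RNA library, with replicates 1 to 3 of each genotype on the horizontal axis. The Tyro3 share runs from 68.4% to 75.8% in B6J and from 38.5% to 51.4% in the mutants.

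Axl (ENSMUSG00000002602, chr7:25757273-25788705, minus strand), the receptor that binds Gas6 most tightly and that is induced in reactive phagocytes, showed no call in either assay. Its RNA was 51.0, 56.9 and 47.0 CPM in B6J, 60.1, 50.5 and 53.8 CPM in the Gtpbp1 mutants and 50.9, 54.5 and 54.3 CPM in the Gtpbp2 mutants. Except for Gtpbp1 mutant replicate 1, every mutant library lay within the B6J range. The log2 fold changes were 0.09 (SE 0.095, 95% interval -0.12 to 0.29, adjusted p = 0.644) and 0.04 (95% interval -0.15 to 0.24, adjusted p = 0.838). The former was 0.01 without Gtpbp1 mutant replicate 1, 0.02 without B6J replicate 3, 0.16 without B6J replicate 2 and 0.23 with an offset for transcript length (adjusted p = 0.202), and the latter was -0.01 without B6J replicate 3. On the TPM scale Axl stood at 26.8, 21.7 and 23.3 in B6J, at 32.5, 30.6 and 31.5 in the Gtpbp1 mutants and at 31.4, 31.3 and 26.5 in the Gtpbp2 mutants. There, 3 of 3 and 2 of 3 mutant libraries were above the B6J range. The limma test on TPM gave log2 changes of 0.40 (adjusted p = 0.0617) and 0.31 (adjusted p = 0.189), on a scale that also shifted the median of all genes to 0.16 and 0.15. Axl-203, a transcript of 602 bases with a retained intron, stood at 0, 0 and 4.45 TPM in B6J, at 7.59, 3.83 and 4.87 in the Gtpbp1 mutants and at 7.15, 4.40 and 2.00 in the Gtpbp2 mutants. The coding transcript Axl-201 stood at 16.1, 20.5 and 15.8 TPM in B6J, at 22.8, 19.3 and 19.9 in the Gtpbp1 mutants and at 18.7, 20.9 and 20.1 in the Gtpbp2 mutants, with overlap between all genotypes.

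Axl footprints were 45.4, 60.4 and 58.3 CPM in B6J, 65.0, 55.5 and 108 CPM in the Gtpbp1 mutants and 47.7, 46.5 and 60.9 CPM in the Gtpbp2 mutants. Replicate 3 of the Gtpbp1 mutants stood apart from the rest. The log2 fold changes were 0.47 (SE 0.251, 95% interval -0.07 to 1.02, adjusted p = 0.469) and -0.09 (adjusted p = 0.861). The latter ran from -0.22 to -0.01 as single libraries were left out. Without Gtpbp1 mutant replicate 3 the former was 0.14 (adjusted p = 0.792). Between the mutants the log2 difference was 0.55 (95% interval 0.01 to 1.09, adjusted p = 0.458), and it was 0.21 without that library.

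Mertk (ENSMUSG00000014361, chr2:128698956-128802894, plus strand) is the main phagocytic receptor of the family and binds both ligands. Its RNA was 20.8, 27.9 and 15.5 CPM in B6J, 17.9, 17.0 and 21.3 CPM in the Gtpbp1 mutants and 35.4, 21.2 and 19.5 CPM in the Gtpbp2 mutants. B6J replicate 2 and Gtpbp2 mutant replicate 1 were high, and all genotypes overlapped. The log2 fold changes were -0.19 (SE 0.185, 95% interval -0.60 to 0.22, adjusted p = 0.593) and 0.25 (SE 0.282, 95% interval -0.42 to 0.91, adjusted p = 0.697). Neither direction held when the high library was left out: the former was 0.04 without B6J replicate 2 and the latter -0.07 without Gtpbp2 mutant replicate 1. In TPM, Mertk stood at 8.91, 13.8 and 6.54 in B6J, at 9.01, 8.93 and 11.0 in the Gtpbp1 mutants and at 17.9, 10.8 and 9.79 in the Gtpbp2 mutants. Inside the gene lie Gm14011, an antisense gene at 0 TPM in all 9 libraries, and Gm23172, a small nucleolar RNA gene on the same strand at 0 to 28.2 TPM.

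Mertk footprints were 37.4, 27.1 and 42.9 CPM in B6J, 52.2, 38.6 and 78.7 CPM in the Gtpbp1 mutants and 41.6, 33.3 and 62.3 CPM in the Gtpbp2 mutants. Replicate 3 was the highest in each genotype. The log2 fold changes were 0.65 (SE 0.271, 95% interval 0.07 to 1.24, unadjusted p = 0.0317, adjusted p = 0.33) and 0.35 (adjusted p = 0.501). Without Gtpbp1 mutant replicate 3 the former was 0.34 (adjusted p = 0.533). The latter was 0.06 without Gtpbp2 mutant replicate 3, 0.19 without B6J replicate 2, 0.52 without B6J replicate 3 and 0.54 without Gtpbp2 mutant replicate 2. Mertk TE was 0.84 (SE 0.363, adjusted p = 0.534) in the Gtpbp1 mutants, and 0.43 without replicate 2 of B6J in both assays. In the Gtpbp2 mutants it was 0.11 (adjusted p = 0.941), and, again with both libraries of a number left out, it was -0.35 without Gtpbp2 mutant replicate 3, -0.27 without B6J replicate 2, 0.41 without B6J replicate 3 and 0.50 without Gtpbp2 mutant replicate 1.

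Genes typical of bone and skeletal muscle were read as a check for other tissue. Their 5 genes, Col1a2 being the most abundant and none at 0 throughout, summed to 273, 664 and 879 footprint CPM in B6J, 1563, 1366 and 2635 in the Gtpbp1 mutants and 602, 971 and 473 in the Gtpbp2 mutants. Gtpbp1 mutant replicate 3, where Axl and Mertk footprints were highest, was highest here as well. This was not particular to the list. Summed footprints of the astrocyte and Bergmann glia markers were 4323, 4958 and 4966 CPM in B6J, 4680, 5031 and 6605 in the Gtpbp1 mutants and 5028, 4344 and 5341 in the Gtpbp2 mutants. In the Gtpbp2 mutants, replicate 3 had the highest Axl and Mertk footprints but the lowest bone and muscle sum. The part of other tissue or of glia in those footprints was not tested. By edgeR, 0 of 5 were called in footprints of the Gtpbp1 mutants (median log2 change 1.438 against 0.014 over all genes, 4 at an unadjusted p under 0.05, 2 called higher by DESeq2). For the Gtpbp2 mutants 0 of 3 tested were called (median 0.09 against 0.005, 1 at an unadjusted p under 0.05, 1 called lower by DESeq2). In RNA, 0 of 5 were called in either mutant by edgeR or DESeq2, with 0 at an unadjusted p under 0.05 and medians of 0.201 and 0.029. Of all genes edgeR called 0.745% and 2.94% in footprints and 13.8% and 8.63% in RNA, for the Gtpbp1 and Gtpbp2 mutants. At these footprint shares, 0 calls in so short a list say little about it.

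Microglia are the cells in which brain Mertk has been studied most. Of 10 microglial genes, 8 rose in RNA in the Gtpbp1 mutants and 7 in the Gtpbp2 mutants, with medians of 0.94 and 0.89 on the log2 scale against 0.029 and 0.027 over all genes, of which 13.8% and 8.63% were called. In footprints 1 of 9 tested rose in the Gtpbp1 mutants (C1qa, median of the list 1.205 against 0.014) and 2 in the Gtpbp2 mutants (C1qa and Trem2, median 0.59 against 0.005) by edgeR. DESeq2 called 6 and 3 of these footprints, all higher, and 9 and 6 had an unadjusted p under 0.05. Of all genes edgeR called 0.745% and 2.94% in footprints. Summed microglial RNA was 127, 119 and 141 TPM in B6J, 304, 256 and 263 in the Gtpbp1 mutants and 248, 276 and 278 in the Gtpbp2 mutants, well apart from B6J. The fractalkine receptor Cx3cr1 was at log2 1.05 and 1.00 (adjusted p = 3.57e-05 and 0.0003). None of the 10 was at 0 in all libraries. C1qa and Csf1r of this list also belong to the pathway lists. The part of microglia in the Axl and Mertk values was not tested.

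Gas6 (ENSMUSG00000031451, chr8:13465374-13494490, minus strand) encodes the ligand that binds all 3 receptors and had more RNA per length than Pros1 in every library. Its RNA was 104, 105 and 103 CPM in B6J, 99.7, 87.0 and 82.3 CPM in the Gtpbp1 mutants and 103, 86.3 and 85.4 CPM in the Gtpbp2 mutants. B6J libraries lay close together, 3 of 3 Gtpbp1 mutants and 2 of 3 Gtpbp2 mutants were below them, and replicate 1 was the highest in both mutants. The log2 fold changes were -0.21 (SE 0.08, 95% interval -0.39 to -0.04, adjusted p = 0.104) and -0.19 (SE 0.086, adjusted p = 0.233), neither past the threshold of 0.05. Gas6 was called without Gtpbp1 mutant replicate 1 (-0.30, adjusted p = 0.0333) and without Gtpbp2 mutant replicate 1 (-0.28, adjusted p = 0.0348), and over all libraries left out the adjusted p ran from 0.0333 to 0.302 and from 0.0348 to 0.572. On the TPM scale Gas6 stood at 70.1, 70.3 and 68.7 in B6J, at 73.7, 65.7 and 62.1 in the Gtpbp1 mutants and at 76.1, 65.4 and 63.3 in the Gtpbp2 mutants, where the mutants spread to both sides of B6J. The limma test on TPM gave Gas6 log2 changes of -0.06 (adjusted p = 0.71) and -0.03 (adjusted p = 0.861). Gas6 has 1 annotated transcript. Its end overlaps Tmem255b on the other strand, at 0.203 to 2.29 TPM, and since the RNA kit does not mark strand, reads of the overlap cannot be told apart.

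Gas6 footprints were 146, 132 and 111 CPM in B6J, 115, 105 and 148 CPM in the Gtpbp1 mutants and 105, 142 and 134 CPM in the Gtpbp2 mutants. All genotypes overlapped. The log2 fold changes were -0.07 (adjusted p = 0.922) and -0.04 (adjusted p = 0.933). Per coding kilobase, Gas6 had the highest mean footprint level of the 5 genes in each genotype, at 64.1 ± 8.75 CPM in B6J, 60.8 ± 11.1 in the Gtpbp1 mutants and 62.8 ± 9.83 in the Gtpbp2 mutants. In B6J it overlapped Tyro3 (56.1 ± 14.0), whereas in the Gtpbp1 mutants (29.1 ± 9.54) and Gtpbp2 mutants (28.8 ± 2.4) Tyro3 was below it with no overlap.

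Pros1 (ENSMUSG00000022912, chr16:62854307-62929346, plus strand) encodes protein S, an anticoagulant that also serves as a ligand of Tyro3 and Mertk. Its RNA was 12.6, 10.7 and 11.7 CPM in B6J, 14.9, 15.8 and 17.0 CPM in the Gtpbp1 mutants and 12.9, 18.0 and 18.2 CPM in the Gtpbp2 mutants. Every mutant library was above the B6J range, Gtpbp2 mutant replicate 1 by little. Pros1 rose in the Gtpbp1 mutants, at log2 0.45 (SE 0.125, 95% interval 0.18 to 0.72, adjusted p = 0.0305), making it 1 of the 4 tested members called there, against 13.8% of 24577 genes. Its call was lost without Gtpbp1 mutant replicate 1 (0.49, adjusted p = 0.0515), replicate 2 (0.45, adjusted p = 0.109) or replicate 3 (0.40, adjusted p = 0.11), or B6J replicate 2 (0.39, adjusted p = 0.109). With all libraries kept it was lost with a term for replicate number (adjusted p = 0.0724) and with the offset for transcript length (adjusted p = 0.0576). For the Gtpbp2 mutants the log2 fold change was 0.49 (SE 0.156, 95% interval 0.15 to 0.83, adjusted p = 0.0802). None of the 4 tested members was called there by edgeR, against 8.63% of 24859 genes; 1 had an unadjusted p under 0.05, and DESeq2 called 1, which was Pros1. Without Gtpbp2 mutant replicate 1 edgeR called it too (0.63, adjusted p = 0.0161), and over the left-out libraries the adjusted p ran from 0.0161 to 0.285. On the TPM scale Pros1 stood at 8.19, 6.87 and 7.53 in B6J, at 11.3, 11.3 and 13.0 in the Gtpbp1 mutants and at 9.24, 13.9 and 13.0 in the Gtpbp2 mutants, above B6J in all 6 mutant libraries. Pros1-201, its coding transcript, held 91.4% to 100% of these values.

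Pros1 footprints were 18.8, 21.6 and 20.5 CPM in B6J, 50.7, 24.6 and 37.4 CPM in the Gtpbp1 mutants and 35.2, 30.8 and 44.2 CPM in the Gtpbp2 mutants. Again every mutant library was above B6J, and the Gtpbp1 mutants spread most. In the Gtpbp2 mutants Pros1 rose by log2 0.85 (SE 0.209, 95% interval 0.41 to 1.30, adjusted p = 0.0403), 1 of the 4 tested members called, against 2.94% of 13797 genes. That call was lost without any single library: Gtpbp2 mutant replicate 1 (adjusted p = 0.131), replicate 2 (0.0634) or replicate 3 (0.156), and B6J replicate 1 (0.135), replicate 2 (0.081) or replicate 3 (0.0529), with log2 fold changes from 0.70 to 0.97. It was also lost with all 9 libraries in 1 model (adjusted p = 0.1). In the Gtpbp1 mutants the log2 fold change was 0.89 (SE 0.265, 95% interval 0.31 to 1.46, adjusted p = 0.162). There, 0 of the 4 were called by edgeR, against 0.745% of 13956 genes, 2 had an unadjusted p under 0.05 (Mertk and Pros1), and DESeq2 called 0.

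Markers of vessel cells were read beside Pros1. Of 6 endothelial genes, 3 rose in RNA in each mutant by edgeR (medians 0.363 and 0.576 against 0.029 and 0.027 over all genes, of which 13.8% and 8.63% were called), whereas DESeq2 called 6 and 5 higher and 6 of 6 had an unadjusted p under 0.05 in both. Their sum was 92.1, 85.5 and 92.6 TPM in B6J, 127, 144 and 142 in the Gtpbp1 mutants and 121, 164 and 176 in the Gtpbp2 mutants. The tight-junction gene Cldn5, the most abundant, was at log2 0.59 and 0.74 in RNA (adjusted p = 0.0029 and 0.00275). In endothelial footprints 1 of 6 rose in the Gtpbp1 mutants and 3 of 6 in the Gtpbp2 mutants (medians 0.937 and 0.899 against 0.014 and 0.005 over all genes, of which 0.745% and 2.94% were called), with Cldn5 called in both by edgeR. DESeq2 called 4 and 5 of them higher, and 5 and 6 had an unadjusted p under 0.05. Of 3 pericyte genes, with Rgs5 the most abundant, 2 rose in RNA in the Gtpbp1 mutants (Rgs5 and Pdgfrb). In the Gtpbp2 mutants 0 passed by edgeR, 1 had an unadjusted p under 0.05 and DESeq2 called 1 (medians 0.409 and 0.365). Pericyte sums were 146, 148 and 147 TPM in B6J, 199, 232 and 241 in the Gtpbp1 mutants and 148, 257 and 256 in the Gtpbp2 mutants. In RNA, Gtpbp2 mutant replicate 1 was the lowest mutant library for both vessel lists and for Pros1. In RNA CPM, that library stood at 214 for the pericyte sum (230, 240 and 241 in B6J). Its endothelial sum was 177 CPM (161, 154 and 157 in B6J) and its Pros1 RNA 12.9 CPM (12.6, 10.7 and 11.7 in B6J). In pericyte footprints 0 of 3 were called in the Gtpbp1 mutants by edgeR or DESeq2 (median 0.738, 3 at an unadjusted p under 0.05), and 1 of 3 rose in the Gtpbp2 mutants (Rgs5, median 0.301). No gene of either list was at 0 throughout, and the part of vessel cells in the Pros1 values was not tested.

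Between the mutants 0 of the 5 genes were called in RNA by edgeR or DESeq2, with 0 at an unadjusted p under 0.05, against 0.0595% of 25190 genes. For Tyro3 this RNA test has the limit given above. The log2 differences (Gtpbp1 over Gtpbp2 mutants) were 0.04 for Axl, -0.44 for Mertk (unadjusted p = 0.082), -0.03 for Gas6 and -0.04 for Pros1, each at an adjusted p of 1. That of Mertk was -0.12 without Gtpbp2 mutant replicate 1. In footprints 0 of 5 were called by edgeR or DESeq2, 1 had an unadjusted p under 0.05 (Axl), and 0% of 14142 genes were called by edgeR, where 1523 had an unadjusted p under 0.05 and DESeq2 called 100. The footprint differences were 0.29 for Mertk (adjusted p = 0.751), -0.04 for Gas6 (adjusted p = 0.952) and 0.02 for Pros1 (adjusted p = 0.986). Their directions did not hold as libraries were left out: Mertk was at -0.03 without Gtpbp1 mutant replicate 3, Gas6 at 0.06 without Gtpbp1 mutant replicate 2, and Pros1 at -0.25 without Gtpbp1 mutant replicate 1. An adjusted p above the threshold does not show that the mutants were alike.

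For TE, 0 of the 4 tested genes were called by edgeR or DESeq2 in either mutant. In the Gtpbp1 mutants 1 of them had an unadjusted p under 0.05 (Mertk), against 0% of 13086 genes called by edgeR, 1170 with an unadjusted p under 0.05 and 58 called by DESeq2. In the Gtpbp2 mutants none of them had, against 0.00773% of 12931 genes, a single gene, Cacng3, seen only after the test; 1554 had an unadjusted p under 0.05 and DESeq2 called 160. Pros1 TE was 0.44 (adjusted p = 0.695) and 0.37 (adjusted p = 0.576) on the log2 scale, Gas6 TE 0.15 in both (adjusted p = 0.883 and 0.799), and Axl TE 0.39 and -0.12 (adjusted p = 0.728 and 0.844). Leaving out an RNA and a footprint library of the same number moved these values as well. In the Gtpbp1 mutants Axl TE was 0.03 without Gtpbp1 mutant replicate 3, Pros1 TE was 0.12 without Gtpbp1 mutant replicate 1 and 0.67 without replicate 2, and Gas6 TE was -0.08 without Gtpbp1 mutant replicate 3. Over the pairs of libraries left out, TE in the Gtpbp2 mutants ran from -0.26 to -0.04 for Axl, 0.26 to 0.55 for Pros1 and 0.01 to 0.36 for Gas6.

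**Figure D3:**
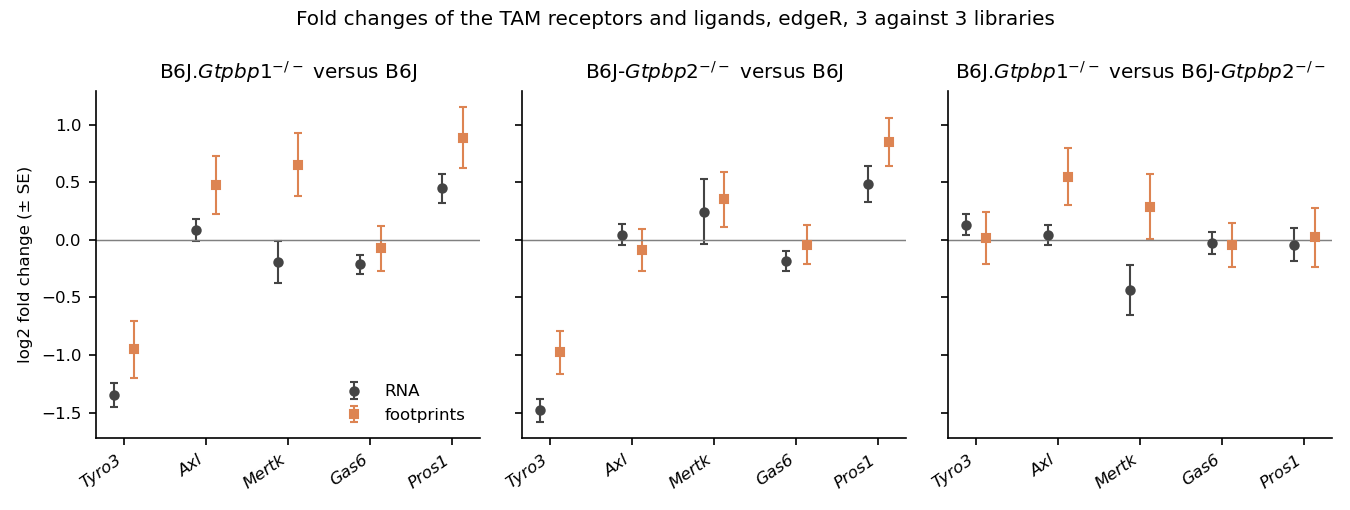
Log2 fold changes of the 5 genes with their SE in RNA (circles) and footprints (squares), 3 libraries against 3, in the Gtpbp1 mutants against B6J, the Gtpbp2 mutants against B6J, and between the mutants. Tyro3 lies at -1.35 and -1.48 in RNA and at -0.95 and -0.98 in footprints, Pros1 at 0.45 and 0.49 in RNA and at 0.89 and 0.85 in footprints, and between the mutants Tyro3 lies at 0.13 and 0.01.

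Since n-Tr20 reads AGA, the AGA codons of the 5 genes were counted in the coding sequence of the main transcript of each. Tyro3 had 4 AGA codons among 880, or 4.55 per 1000, and 79.1% of 16240 genes with RNA tests and a coding sequence had a larger share. Axl had 8 among 888 (9.01 per 1000), Mertk 12 among 994 (12.1), Gas6 4 among 674 (5.93) and Pros1 6 among 675 (8.89), against a median of 10.4 over all genes. Mertk was thus above that median and the other 4 below it. Ribosome occupancy at single codons was not analysed here. For each receptor, a stretch of 20 codons with the most AGA codons is shown 5′ to 3′ on the coding strand of GRCm38, with AGA codons in capitals, to show where the affected tRNA would be read: Tyro3 from exon 4 of 19 (chr2:119803323-119803382, plus strand), Axl from exon 2 of 20 (chr7:25787428-25787487, minus strand) and Mertk from exon 10 of 19 (chr2:128776378-128776437, plus strand). Mertk alone had 2 within such a stretch.
Tyro3: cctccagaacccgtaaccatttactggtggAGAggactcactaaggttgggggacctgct
Axl: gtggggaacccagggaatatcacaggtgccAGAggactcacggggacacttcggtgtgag
Mertk: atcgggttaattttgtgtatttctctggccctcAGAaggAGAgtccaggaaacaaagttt

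The ligands share the Gla domain that links phosphatidylserine to the receptors. The stretches of 20 codons richest in glutamate codons within exon 2 of 15 of each ligand are shown 5′ to 3′ on the coding strand of GRCm38, with the glutamate codons GAA and GAG in capitals, since these encode the residues that the vitamin K-dependent carboxylase modifies. They come from chr8:13493861-13493920, minus strand, for Gas6 and from chr16:62885484-62885543, plus strand, for Pros1, and each holds 8 glutamate codons.
Gas6: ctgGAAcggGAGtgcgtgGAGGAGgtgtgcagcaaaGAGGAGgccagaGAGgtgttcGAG
Pros1: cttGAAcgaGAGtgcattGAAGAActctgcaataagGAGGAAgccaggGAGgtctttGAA

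The 5 genes whose RNA pattern was most like that of Tyro3 were Ccdc63, Necab3, Insrr, Aifm3 and Tagln3, of 23796 compared. Likeness was the root mean square difference in log2 CPM over the 9 RNA libraries after centring each gene, at 0.136, 0.185, 0.19, 0.191 and 0.192. Because the pattern of Tyro3 chose them, their lower RNA in the mutants is part of the choice and was not tested. Mean RNA of Ccdc63 was 16.8 CPM in B6J, 6.97 in the Gtpbp1 mutants and 6.72 in the Gtpbp2 mutants, and that of Aifm3 was 159, 63.6 and 69.1 CPM. For Tagln3, a neuronal protein of the transgelin family, it was 237, 107 and 113 CPM. Necab3, which encodes a calcium-binding protein, stood at 97.0, 42.3 and 44.6 CPM, and the insulin receptor relative Insrr at 2.54, 1.06 and 1.12 CPM. On the TPM scale the 5 nearest were Cpsf4l, Adamts10, Nrep, Tagln3 and Gabra6, of which Tagln3 alone was shared, so the choice of neighbours depended on the scale.

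Genes around the receptors were read as lists, outlined under the methods, each beside the median of all genes tested (0.029 and 0.027 in RNA, 0.014 and 0.005 in footprints, for the Gtpbp1 and Gtpbp2 mutants). Over all genes edgeR called 13.8% and 8.63% in RNA and 0.745% and 2.94% in footprints, in the same order. Of the 3 genes that carboxylate the ligands (Ggcx, Vkorc1 and Vkorc1l1), 0 were called in either mutant by edgeR, with RNA medians of -0.256 and -0.278 and footprint medians of 0.281 and -0.035. At an unadjusted p under 0.05 there was 1 in RNA of the Gtpbp1 mutants, the carboxylase Ggcx (log2 -0.46, adjusted p = 0.0571), which DESeq2 called lower, and 0 elsewhere in RNA and footprints by either measure. Of 3 other Mertk ligands (Tub, Tulp1 and Lgals3), 0 were called by edgeR or DESeq2, at RNA medians of -0.11 and 0.233 and, for the 2 tested, footprint medians of 0.234 and 0.447, with 1 at an unadjusted p under 0.05 in footprints of the Gtpbp1 mutants. Of the proteases that shed the receptors from the cell surface, Adam10 and Adam17, RNA of Adam17 fell in the Gtpbp1 mutants (log2 -0.33, adjusted p = 0.0237). Among Gtpbp2 mutants it was at -0.31 (adjusted p = 0.0919) and DESeq2 called it lower, and RNA medians of both genes were -0.271 and -0.222. In footprints 0 of 2 were called by edgeR or DESeq2, and 0 had an unadjusted p under 0.05 (medians 0.011 and -0.208).

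Of 29 genes that relay signals from the receptors, 7 were called in RNA of the Gtpbp1 mutants, 4 of them lower, and 4 in the Gtpbp2 mutants, 3 of them lower, at medians of 0.013 and -0.048 (by DESeq2, 7 with 4 lower and 6 with 3 lower). Over all genes 13.8% and 8.63% were called. The adaptor Grb2 was at 177, 181 and 186 CPM in B6J, 135, 137 and 136 in the Gtpbp1 mutants and 142, 146 and 132 in the Gtpbp2 mutants (log2 -0.42 and -0.38, adjusted p = 0.00124 and 0.0108), all mutants below B6J. Akt2, a kinase downstream of phosphoinositide 3-kinase, was at log2 -0.36 and -0.37 (adjusted p = 0.00513 and 0.0175). In footprints 0 of 29 were called in the Gtpbp1 mutants by edgeR or DESeq2, with 1 at an unadjusted p under 0.05 (median -0.038). Of all genes edgeR called 0.745% in that comparison. 1 of 29 fell in the Gtpbp2 mutants, the kinase Mapk3 at log2 -0.61 (adjusted p = 0.0443; median 0.021), a share near the 2.94% of all genes called there.

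Of 9 genes that control phosphatidylserine on the outer membrane, 0 were called by edgeR in RNA or footprints of either mutant. RNA medians were -0.074 and -0.099 and footprint medians -0.307 and -0.092. At an unadjusted p under 0.05 there were 1 and 0 in RNA and 1 and 3 in footprints, and DESeq2 called 1 in RNA of the Gtpbp1 mutants, which was higher, and 0 otherwise. Among 16 tested genes for other phosphatidylserine receptors and bridging proteins, 4 rose and 3 fell in RNA in the Gtpbp1 mutants and 4 rose and 1 fell in the Gtpbp2 mutants (medians -0.064 and -0.03; DESeq2 gave the same counts but for 2 lower in the Gtpbp2 mutants), where 13.8% and 8.63% of all genes were called. Those that rose in both mutants included C1qa, C1qb and C1qc, which belong to the same complex. C1qa is also in the microglial list, so these counts are not separate from the rise of microglial genes. Complement C1qa was at 10.6, 10.2 and 10.7 CPM in B6J, 29.1, 24.9 and 27.5 in the Gtpbp1 mutants and 23.9, 28.7 and 26.1 in the Gtpbp2 mutants (log2 1.37 and 1.32, adjusted p = 3.45e-06 and 8.98e-05), far above B6J in every mutant library. C1qc, from the same complex, was at log2 1.44 and 1.28 (adjusted p = 9.4e-06 and 9.8e-05). The engulfment receptor Megf10 was at 109, 122 and 96.2 CPM in B6J, 80.6, 80.8 and 80.9 in the Gtpbp1 mutants and 70.1, 74.9 and 60.2 in the Gtpbp2 mutants (log2 -0.43 and -0.67, adjusted p = 0.00401 and 0.00288), with all mutants below B6J. In footprints 3 of 13 rose in the Gtpbp1 mutants and 2 of 13 in the Gtpbp2 mutants (medians 0.226 and 0.126), against 0.745% and 2.94% of all genes. C1qb was called in both (log2 1.30 in the Gtpbp2 mutants, adjusted p = 0.00823 and 0.00833), as was C1qa (adjusted p = 0.0305 and 0.00683).

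Other receptor tyrosine kinases set the receptors beside their superfamily. Of 54 tested, 9 rose and 7 fell in RNA in the Gtpbp1 mutants and 4 rose and 7 fell in the Gtpbp2 mutants (medians 0.073 and 0.085), where 13.8% and 8.63% of all genes were called in either direction. DESeq2 called 9 higher and 10 lower in the Gtpbp1 mutants and 9 higher and 9 lower in the Gtpbp2 mutants, and 25 and 22 had an unadjusted p under 0.05, so the balance of directions in the Gtpbp2 mutants depended on the tool. The collagen receptor Ddr2 was at 23.9, 25.1 and 19.6 CPM in B6J, 138, 176 and 202 in the Gtpbp1 mutants and 118, 182 and 179 in the Gtpbp2 mutants, log2 2.91 in the former (adjusted p = 2.96e-06) and adjusted p = 8.51e-05 in the latter. Csf1r, the receptor on which microglia depend, was at 29.6, 32.6 and 27.9 CPM in B6J, 58.1, 48.7 and 47.1 in the Gtpbp1 mutants and 50.7, 48.5 and 52.7 in the Gtpbp2 mutants (log2 0.77 in the former, adjusted p = 0.000224 and 0.000522). Both were above B6J in all mutant libraries. The Wnt receptor Ror1 was at 12.2, 10.7 and 7.27 CPM in B6J, 3.06, 3.38 and 2.56 in the Gtpbp1 mutants and 3.61, 2.72 and 2.11 in the Gtpbp2 mutants, log2 -1.74 and -1.84 (adjusted p = 0.00015 and 0.0013), all mutants below B6J. The ephrin receptor Epha3 was at log2 -0.64 and -0.69 (adjusted p = 0.00306 and 0.00892). Insrr, chosen above for its likeness to Tyro3, belongs to this list, so 1 gene of the lower count in each mutant was part of that choice. In footprints 1 of 49 rose in the Gtpbp1 mutants and 3 of 47 in the Gtpbp2 mutants (medians 0.131 and 0.058), against 0.745% and 2.94% of all genes, with Ddr2 called in both at log2 2.34 and 2.22 (adjusted p = 0.00165 and 0.000281), and DESeq2 called 3 and 5, all higher. In none of the 7 lists was a gene called by edgeR between the mutants or in TE. At an unadjusted p under 0.05 there were at most 7 genes of a list in RNA and 4 in footprints between the mutants and 5 in TE, and DESeq2 called 1 signalling gene and 1 bridging gene in footprints between the mutants and 0 in TE.

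The other cell types of the cerebellum were read in the same way. Of 8 genes of astrocytes and Bergmann glia, 1 rose and 3 fell in RNA in each mutant (medians -0.052 and -0.056), with the same counts by DESeq2. For this and the next 3 lists, 13.8% and 8.63% of all genes were called in RNA and 0.745% and 2.94% in footprints. The gene that rose was Gfap, at log2 1.35 and 1.22 (adjusted p = 3.04e-05 and 0.000104). Those that fell were Hopx, at -0.57 and -0.69 (adjusted p = 0.000331 and 0.0128), the glutamate transporter Slc1a3, at -0.45 and -0.44 (adjusted p = 0.00911 and 0.0219), and Aldh1l1, at -0.33 and -0.30 (adjusted p = 0.0388 and 0.0322). The sum of the 8, led by Slc1a3, was 1910, 1972 and 1673 TPM in B6J, 1991, 1730 and 1989 in the Gtpbp1 mutants and 1763, 1982 and 1778 in the Gtpbp2 mutants, with overlap throughout. Of 6 Purkinje cell genes, 1 fell in the Gtpbp1 mutants and 2 in the Gtpbp2 mutants (medians -0.224 and -0.389; DESeq2 called 1 and 4, all lower), Car8 in both, and the sum, led by Pcp2, was 4965, 5292 and 4073 TPM in B6J, 4888, 4082 and 5488 in the Gtpbp1 mutants and 4120, 4504 and 3717 in the Gtpbp2 mutants. Of 8 oligodendrocyte genes, 7 fell in the Gtpbp1 mutants (median -0.42), and in the Gtpbp2 mutants 0 were called by edgeR or DESeq2, with 0 at an unadjusted p under 0.05 (median 0.003). Between the mutants edgeR called 0 of the 8 (median -0.388 for Gtpbp1 over Gtpbp2 mutants), 6 had an unadjusted p under 0.05 and DESeq2 called 2, both lower in the Gtpbp1 mutants. Their sum, led by Mbp, was 9670, 8332 and 9573 TPM in B6J, 7867, 7977 and 6850 in the Gtpbp1 mutants and 11386, 8600 and 9365 in the Gtpbp2 mutants. Both oligodendrocyte precursor genes, Pdgfra and Cspg4, had values in every library, and Cspg4 rose in the Gtpbp2 mutants (log2 0.70, adjusted p = 0.0413), while edgeR and DESeq2 called 0 in the Gtpbp1 mutants, with 0 at an unadjusted p under 0.05 (medians 0.156 and 0.473). Their sum was 14.6, 14.3 and 11.1 TPM in B6J, 17.0, 16.6 and 14.5 in the Gtpbp1 mutants and 21.7, 17.8 and 18.2 in the Gtpbp2 mutants. Footprints of these 4 lists gave 0 calls by edgeR in either mutant, with medians of 0.117, 0.109, 0.1 and 0.44 in the Gtpbp1 mutants and -0.068, 0.257, 0.183 and 0.463 in the Gtpbp2 mutants. At an unadjusted p under 0.05 the 4 lists held 2, 1, 0 and 1 genes in the Gtpbp1 mutants and 2, 1, 0 and 1 in the Gtpbp2 mutants, and DESeq2 called 1, 0, 0 and 0, and 1, 1, 0 and 0. Between the mutants edgeR called 0 genes of the 9 marker lists in RNA and in footprints. Apart from the oligodendrocyte genes, 1 precursor gene had an unadjusted p under 0.05 in RNA and DESeq2 called 0. In footprints 3 microglial, 3 astrocyte, 6 granule neuron, 1 pericyte and 4 bone and muscle genes had an unadjusted p under 0.05, and DESeq2 called 1 astrocyte gene and 3 bone and muscle genes, all higher in the Gtpbp1 mutants. The parts of these cells in the values of the 5 genes were not tested.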

How the data were processed

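Per the labels, the authors made the RNA files with kallisto 0.42.4 against Gencode M20 (GRCm38), which gives estimated counts and TPM per transcript. For footprints, ribosomal RNA reads were removed with Bowtie2 2.2.3, and the others were mapped with HISAT2 2.1.0 and counted on coding sequences with featureCounts, and the deposited files hold whole counts per gene. Here, expected counts were summed per gene and rounded, and TPM were summed per gene; all 22523 footprint genes had a symbol in the RNA files. Genes with at least 5 counts in 3 of the 6 libraries of a comparison (10 in each assay for TE, without histone genes) were tested with edgeR 4.0.16 (TMM, quasi-likelihood, R 4.3.3), and TE as the interaction of assay and genotype. An adjusted p (Benjamini-Hochberg) of at most 0.05 was called. CPM used TMM factors over the 9 libraries of an assay; log2 CPM used a prior count of 2. Coordinates, codons and coding lengths came from GENCODE M21 on the same build. Alternatives used DESeq2 1.42.0 and limma 3.58.1 (log2 of TPM + 0.5). Tables and plots were made with Python 3.11.15, numpy 2.4.6, pandas 2.3.3 and matplotlib 3.10.9. Fits were tested on simulated data. Transcripts were described without a test.

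The members and lists were chosen with earlier results of these data known. Named genes were the 5 members, both mutated genes, the 5 genes nearest to Tyro3, and per list at most 2 genes per direction with the smallest adjusted p among those called in both mutants, not all of which are described; genes outside this rule (Ddx3y, Cacng3, Trem2, Rgs5, Pdgfrb, Mapk3, Ggcx, Cspg4, Adam17 and Aldh1l1, the most abundant markers Col1a2, Pcp2 and Mbp, and Cpsf4l, Adamts10 and Nrep, nearest on the TPM scale) were named after their values were seen. Lists of 2 or 3 genes, and genes that overlap a member, were named for that reason. Pathway lists were: Ggcx, Vkorc1 and Vkorc1l1; Tub, Tulp1 and Lgals3; Adam10 and Adam17; signalling downstream of the receptors (29 genes, among them Grb2, Shc1, Plcg1, Pik3r1, Akt2, Src, Vav1, Rac1, Mapk3, Jak1 and Socs3); phosphatidylserine exposure (9 genes, among them Xkr8, Ano6, Atp8a2 and Tmem30a); other phosphatidylserine receptors and bridging proteins (Mfge8, Itgav, Itgb3, Itgb5, Adgrb1, Timd4, Havcr1, Stab1, Stab2, Cd300lf, Cd36, Lrp1, Megf10, Gulp1, C1qa, C1qb and C1qc); and 55 other receptor tyrosine kinases. Marker lists were for microglia, astrocytes and Bergmann glia, granule neurons, Purkinje cells, oligodendrocytes, their precursors, endothelial cells, pericytes, and bone and skeletal muscle.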

Additional observations from a re-analysis of the deposited data

How the results depend on the processing

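Of 515 values of the 5 genes under other settings, 465 kept their direction and their side of the threshold or, for Tyro3 against B6J, moved by less than the spread between replicates. Another 2 moved, 13 lost a call (all Pros1), 6 gained a call (Pros1 and Gas6) and 29 changed direction, in 14 results whose log2 value was at most 0.29 in size. The cause was not tested in any of these. Without the settings that leave out a library, 265 held, 1 moved, 3 lost a call, 3 gained a call and 3 changed direction. The log2 change of Tyro3 against B6J was negative under every setting run, in RNA from -1.44 to -1.25 and from -1.57 to -1.37 as single libraries were left out, and in footprints from -1.25 to -0.73 and from -1.10 to -0.76. Tyro3 was chosen for its fall, and every mutant library lay below every B6J library. The steady sign therefore adds no support.

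With the replicate block, Pros1 RNA in the Gtpbp1 mutants was 0.45 (adjusted p = 0.0724) and the footprint differences between the mutants were -0.03 for Tyro3 and -0.01 for Pros1. After centring each gene on its genotype mean, libraries of the same number were not more alike than others. Their correlations ran from -0.045 to 0.089 in RNA and from -0.26 to 0.097 in footprints. For other pairs of libraries they ran from -0.075 to 0.099 and from -0.184 to 0.25. Centred values of only 3 libraries per genotype cannot show whether numbers were paired in processing. An offset for transcript length gave Pros1 RNA 0.49 (adjusted p = 0.0576) in the Gtpbp1 mutants. In the Gtpbp2 mutants Pros1 RNA was 0.49 by DESeq2, with no filter and with all 9 libraries in 1 model (adjusted p = 0.0245, 0.0271 and 0.0371), and Pros1 footprints in 1 model were 0.85 (adjusted p = 0.1). On the TPM scale with limma, RNA changes in the Gtpbp1 mutants were -1.15 for Tyro3 and 0.04 for Mertk.

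Leaving out each library, or for TE the RNA and footprint libraries of a replicate number together, log2 changes ran as follows. In the Gtpbp1 mutants they ran from 0.39 to 0.50 for Pros1 RNA, -0.38 to 0.04 for Mertk RNA, -0.23 to 0.05 for Gas6 footprints, and in TE from 0.02 to 0.69 for Tyro3 and -0.08 to 0.28 for Gas6. In the Gtpbp2 mutants they ran from 0.41 to 0.63 for Pros1 RNA, 0.70 to 0.97 for Pros1 footprints, -0.01 to 0.12 for Axl RNA, -0.07 to 0.48 for Mertk RNA, -0.13 to 0.08 for Gas6 footprints, and in TE from 0.23 to 0.83 for Tyro3 and -0.35 to 0.50 for Mertk. Between the mutants RNA ran from -0.03 to 0.10 for Axl, -0.11 to 0.06 for Gas6 and -0.18 to 0.04 for Pros1, and footprints from -0.28 to 0.19 for Tyro3, -0.03 to 0.58 for Mertk, -0.20 to 0.06 for Gas6 and -0.25 to 0.26 for Pros1. Gas6 RNA ran from -0.30 to -0.16 in the Gtpbp1 mutants and from -0.28 to -0.14 in the Gtpbp2 mutants.

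Counts of genes called moved more. In RNA of the Gtpbp1 mutants 3398 became 2237 with the replicate block, 2227 with the offset, 2156 with limma and 1890 to 3798 leaving out libraries, lowest without Gtpbp1 mutant replicate 2. For the Gtpbp2 mutants 2146 became 3409 with DESeq2, 1363 with the offset, 971 with limma and 953 to 2357 leaving out libraries (1358 without replicate 2, 979 without replicate 3, 953 without B6J replicate 1, 1069 without B6J replicate 2). Between the mutants 15 became 46 with DESeq2, 36 with no filter, 5 with coding transcripts alone and 9 to 17 leaving out libraries (9 without Gtpbp1 mutant replicate 1). Footprint calls in the Gtpbp1 mutants, 104, became 406 with DESeq2, 213 with no filter, 44 with the replicate block, 202 in 1 model and 22 to 186 leaving out libraries (37 without Gtpbp1 mutant replicate 1, 182 without replicate 3, and 22, 41 and 186 without B6J replicates 1, 2 and 3). Those in the Gtpbp2 mutants, 406, became 655 with DESeq2, 268 in 1 model and 106 to 619 (106 without Gtpbp2 mutant replicate 1, 151 without replicate 2, 186 and 619 without B6J replicates 2 and 3). Between the mutants 0 became 3 with upper quartile scaling, 100 with DESeq2, 15 with no filter, 1 with the replicate block, 1 in 1 model and 0 to 33, highest without Gtpbp2 mutant replicate 3. TE calls, with both libraries of a number left out, became 0 to 18 in the Gtpbp1 mutants (58 with DESeq2 on all libraries), highest without B6J replicate 3, and in the Gtpbp2 mutants 160 with DESeq2, 2 with no filter, 0 with the replicate block, 5 in 1 model of all 18 libraries and 0 to 42 (42 without B6J replicate 3, 2 without Gtpbp2 mutant replicate 3 and 0 without any other). The share called higher also moved by scale, from 42.6% to 54.9% with upper quartile scaling and 75.2% with limma on TPM in RNA of the Gtpbp1 mutants, and from 41.8% to 53.3% and 77.2% in the Gtpbp2 mutants.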
